A study of Rattus norvegicus with 8 samples.

Results

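NF-kB is a family of transcription factors that rests in the cytoplasm, held there by inhibitors of the IkB family, until a receptor signal marks the inhibitor for destruction. The freed dimers, of which RelA with the Nfkb1 product is the classical pair, enter the nucleus and switch on genes of inflammation, leukocyte adhesion and cell survival. In lung endothelium the pathway is known for the adhesion molecules and chemokines that draw leukocytes out of the blood. Several of its targets are its own inhibitors, above all Nfkbia, so the messenger RNA of an inhibitor is itself a target as well as a brake.

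The family was taken here as 10 genes: the subunits Nfkb1, Nfkb2, Rela, Relb and Rel, the IkB proteins Nfkbia, Nfkbib and Nfkbie, the nuclear IkB protein Nfkbiz, and Tnfaip3, a ubiquitin-editing enzyme that shuts the pathway off. Probes were assigned to a gene when their accession matched one of its RefSeq transcripts. This gave 6 probes of 5 genes among 30367 probes, with 1 probe each for Nfkbia, Nfkbib, Nfkbie and Nfkb2 and 2 for Rela. Nfkbiz, Nfkb1, Relb, Rel and Tnfaip3 had no probe matched and were not analysed here. All 6 probes were well above background on 8 of 8 arrays and none was saturated, so each of them passed the filter on dim probes. The members were selected on the monocrotaline against saline log2 signals of these same arrays, so their differences are given as a description and carry no test.

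The rats were Sprague-Dawley animals, 8 to 10 weeks old, that had received monocrotaline (60 mg/kg, 4 rats) or saline (4 rats) under the skin, and lung endothelial cells were collected 5 days later. Monocrotaline is a plant alkaloid that, once activated in the liver, injures lung vessels, and it serves as a rat model of pulmonary arterial hypertension. Cells of digested whole lung were caught on beads against CD31, an adhesion molecule that platelets and some leukocytes also carry, and RNA was taken without culture. Each rat had its own 1-colour array, and 4 arrays per group limit the precision of every value.

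All levels are log2 signals scaled so that the 75th percentile of each array is 0, and every difference is monocrotaline minus saline on that scale. Over 21652 probes well above background on at least 4 of 8 arrays, the median difference was -0.02, with quartiles of -0.22 and 0.18. In limma's fit over those probes 294 (1.36%) were called higher and 14 (0.0647%) lower, 1.42% in either direction, at a Benjamini-Hochberg adjusted p under 0.05. At an unadjusted p under 0.05, 1456 of the 21652 probes were higher and 1535 lower, the background for such counts below. All 8 arrays were on 1 slide, where monocrotaline filled row 2 and saline filled row 1, so slide row and treatment cannot be told apart. All 16 endothelial markers measured were well above background on all 8 arrays. Their median difference was -0.60 and 16 of 16 had a negative difference (0 called by limma, 9 lower at an unadjusted p under 0.05). The sum of their scaled linear signals was 178 to 307 on monocrotaline arrays and 283 to 406 on saline arrays. In RNA of a mixed cell preparation, fewer cells of a type and less RNA per cell cannot be told apart.

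Most of the family carries the kappa-B consensus, the DNA word that NF-kB dimers bind, next to its own transcription start. The word was searched on both strands as a run of G, a purine, a pair of any bases, a pair of pyrimidines and a pair of C, with overlapping matches counted by position. RefSeq promoters of the GRCr8 build, from 250 bases before the start to 50 bases after it, were at hand for 9 of the 10 genes. Of these 9 promoters 7 held a match (77.8%), against 2515 of 33469 promoters (7.51%) in the whole table. Of 35 promoters of NF-kB target genes 14 held a match (40.0%), and of 17 promoters of immediate early genes 3 (17.6%). Nfkbib and Rela held none. A match is a description of the letters and was not tested as a binding site. The 250 bases before the start of Nfkbia are shown because this is the member whose signal separates the treatments, with the match in capitals (chr6:78597073-78597322, minus strand, printed 5′ to 3′):
Nfkbia: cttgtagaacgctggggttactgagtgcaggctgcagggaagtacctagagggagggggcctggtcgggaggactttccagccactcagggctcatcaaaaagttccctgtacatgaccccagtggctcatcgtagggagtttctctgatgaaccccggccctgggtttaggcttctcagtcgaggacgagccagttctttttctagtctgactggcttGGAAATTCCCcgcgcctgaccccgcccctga
The match begins 31 bases before the start (position -31) and reads as the consensus on the opposite strand.

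Windows of 30 bases around a match in some of the other members are printed with the match in capitals. The capitals are alike by design, since the search picked them. The same word that stands in Nfkbia on one strand stands on the other in Nfkbiz and Nfkb1, while Nfkb2 and Nfkbie, whose probes were read here, differ from it.
Nfkb2 (chr1:255108344-255108373, plus strand, match from -20): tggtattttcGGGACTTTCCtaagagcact
Nfkbie (chr9:22948017-22948046, minus strand, match from -164): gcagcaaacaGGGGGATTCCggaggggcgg
Nfkbiz (chr11:58251698-58251727, plus strand, match from -13): tttttggcctGGGAATTTCCagcgtgtgga
Nfkb1 (chr2:226805440-226805469, minus strand, match from 4, after the start): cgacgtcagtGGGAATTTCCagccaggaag
Rel held matches at 4 positions and Tnfaip3 at 3, and their windows are not printed.

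Nfkbia, the IkB protein that NF-kB itself induces and that ends a bout of NF-kB activity, was lower after monocrotaline. Its scaled log2 signal was 3.59, 3.61, 3.98 and 3.99 on monocrotaline replicates 1 to 4, against 4.55, 4.58, 4.71 and 5.001 on saline replicates 1 to 4. The groups did not overlap, and the lowest saline array lay 0.56 log2 units above the highest monocrotaline array. The group means were 3.79 ± 0.22 in monocrotaline samples and 4.71 ± 0.21 in saline samples (SD, n = 4 each). The difference was -0.92 ± 0.16 (SE), which is a monocrotaline signal of 52.9% of the saline signal. The probe was printed at 2 spots on each array, and these differed by at most 0.03 log2 units on any array, so spot-to-spot error was far below the spread between rats.

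Scaling between arrays matters for how clean that separation looks. The processed signal of Nfkbia before scaling was 19211 to 34834 on monocrotaline arrays and 24845 to 54955 on saline arrays, and these ranges overlap. The overlap came from saline replicate 2, whose 75th percentile signal was 1042, against 1597 to 2196 on monocrotaline arrays and 1716 to 1880 on the other saline arrays. The difference of unscaled group means was -0.66. Arrays with the same replicate number lay in the same column of the slide, and within the columns the scaled differences were -0.96, -0.97, -0.74 and -1.01 for replicates 1 to 4. As the scaled groups did not overlap, the sign in every column was fixed in advance, so these values are a description only.

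**Figure D1:**
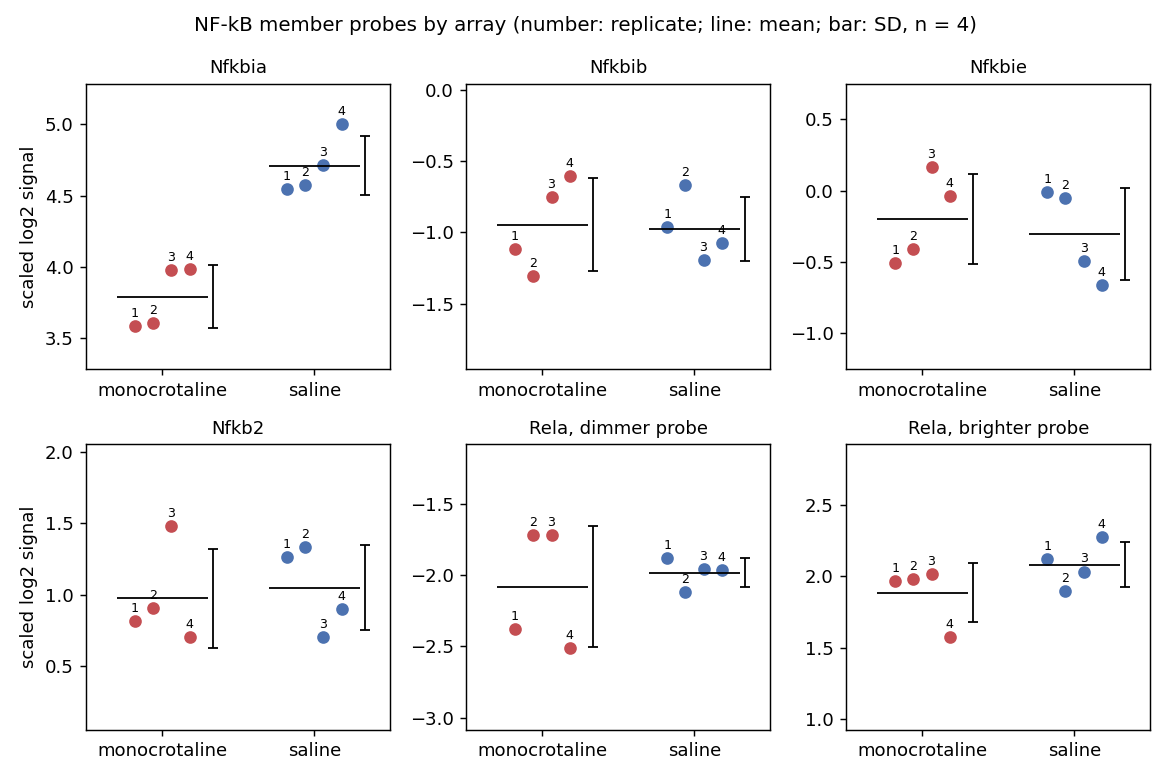
Scaled log2 signal of each NF-kB member probe on every array, with monocrotaline left and saline right. Points are arrays numbered by replicate, lines are group means, bars are the SD (n = 4), and every panel spans the same number of log2 units. Nfkbia shows a gap of 0.56 between its groups, and the groups of the other 5 probes overlap.

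Nfkbib, an IkB protein that holds dimers in the cytoplasm and is not known as a fast feedback gene, showed no separation. Its signal was -1.11, -1.31, -0.75 and -0.61 on monocrotaline replicates 1 to 4, against -0.96, -0.67, -1.19 and -1.08 on saline replicates 1 to 4. The range of the saline arrays lay inside that of the monocrotaline arrays. The means were -0.94 ± 0.32 in monocrotaline samples and -0.97 ± 0.22 in saline samples (SD, n = 4 each), a difference of 0.03 ± 0.19 (SE).

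Nfkbie, an IkB protein that is also an NF-kB target, had signals of -0.51, -0.41, 0.16 and -0.04 on monocrotaline replicates 1 to 4, against -0.01, -0.05, -0.49 and -0.66 on saline replicates 1 to 4. High and low arrays occurred in both groups. The means were -0.20 ± 0.31 in monocrotaline samples and -0.30 ± 0.33 in saline samples (SD, n = 4 each), a difference of 0.11 ± 0.21 (SE). Within the slide columns it was negative in replicates 1 and 2 (-0.50 and -0.36) and positive in replicates 3 and 4 (0.66 and 0.62).

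Among the DNA-binding subunits, Nfkb2 encodes the precursor whose processed form pairs with RelB in the non-canonical branch of the pathway. Its signal was 0.81, 0.91, 1.48 and 0.70 on monocrotaline replicates 1 to 4, against 1.26, 1.33, 0.70 and 0.90 on saline replicates 1 to 4. Monocrotaline replicate 3 was the highest of all 8 arrays and the lowest values of the groups were nearly equal. The means were 0.97 ± 0.35 in monocrotaline samples and 1.05 ± 0.30 in saline samples (SD, n = 4 each), a difference of -0.08 ± 0.22 (SE).

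Rela encodes the subunit with the main activating domain of the classical dimer. Its brighter probe (A_64_P046388, 2 spots) read 1.96, 1.98, 2.02 and 1.58 on monocrotaline replicates 1 to 4, against 2.12, 1.89, 2.03 and 2.27 on saline replicates 1 to 4. Its dimmer probe (A_44_P184726, 1 spot) read -2.38, -1.72, -1.72 and -2.51 on monocrotaline replicates 1 to 4, against -1.88, -2.12, -1.96 and -1.97 on saline replicates 1 to 4. The groups overlapped on both probes, and both were lowest on monocrotaline replicate 4. The difference was -0.20 ± 0.15 (SE) on the brighter probe and -0.10 ± 0.21 on the dimmer probe. The probes thus gave the same sign, and on the dimmer probe the SD was 0.42 in monocrotaline samples and 0.10 in saline samples (n = 4 each).

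Set in the fit over all probes, 1 of the 6 member probes, that of Nfkbia, was called lower (0.0647% of all probes) and 0 were called higher (1.36% of all probes). At an unadjusted p under 0.05 the number was likewise 1 lower and 0 higher (1535 and 1456 of 21652 probes). The same probe was the only member without overlap between the groups, which held for 3.89% of all probes in the lower direction, 4.67% in the higher and 8.56% in either. Nothing is read from these counts, since the family was picked with this contrast in view. The call of Nfkbia was lost when any 1 array other than monocrotaline replicate 3 was left out, with quantile or median scaling, in the deposited table, with no filter and with the slide column as a block, while its difference stayed between -0.98 and -0.82 over 21 alternatives. Nfkbia had the difference ranked 387 from the lowest of 21652 (1.79% of probes were as low or lower). Among the 2166 brightest probes, to which it belongs, the median difference was -0.04 and 29 probes were as low or lower.

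**Figure D2:**
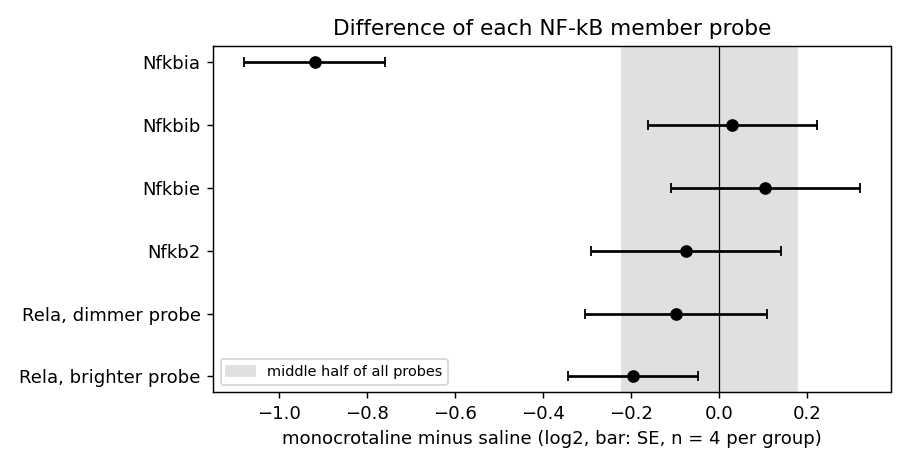
Difference of group means (monocrotaline minus saline, log2) for each NF-kB member probe, with the SE of the fit over all probes (n = 4 per group). The grey band runs from the lower to the upper quartile of all probes, -0.22 to 0.18. Nfkbia lies at -0.92 and the other 5 probes lie between -0.20 and 0.11.

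The members did not vary as one block among rats of a group. In the monocrotaline group Nfkbia, Nfkbib and Nfkbie were each lower on replicates 1 and 2 than on replicates 3 and 4. For Nfkbia the deviations from the group mean were -0.20 and -0.18, against 0.19 and 0.20. Nfkb2 stood highest on replicate 3 (0.50 above its mean), and both Rela probes stood lowest on replicate 4 (-0.43 and -0.31). In the saline group Nfkbie and Nfkb2 were higher on replicates 1 and 2 than on replicates 3 and 4, whereas Nfkbia and the brighter Rela probe were highest on replicate 4 (0.29 and 0.19 above their means).

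**Figure D3:**
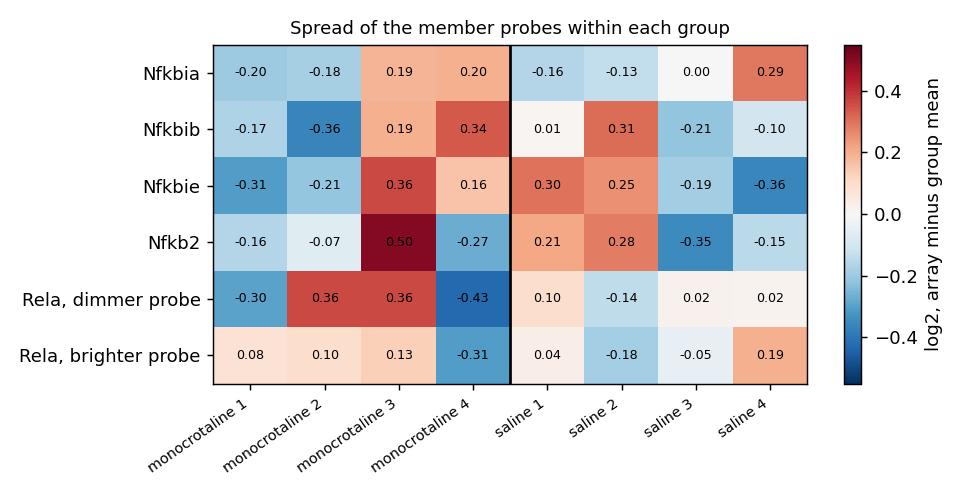
Deviation of each member probe from the mean of its own group on each array (log2), monocrotaline arrays left of the line and saline arrays right of it. Nfkbia, Nfkbib and Nfkbie share the split between monocrotaline replicates 1 and 2 and replicates 3 and 4, and Nfkb2 reaches 0.50 on monocrotaline replicate 3.

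Likeness to Nfkbia was measured as the root mean square difference between log2 profiles over the 8 arrays, each profile centred on its own mean. Of 13582 probes of other named genes the closest was Per1, a clock gene, at 0.18 log2 units. It was followed by Pabpn1l (0.21), Cdk6 (0.21), a G1 kinase, Cyp2c7 (0.22), a cytochrome P450, and Nat8f1 (0.24). Their differences ran from -0.80 for Cyp2c7 to -0.58 for Cdk6, and only Cyp2c7 was called. Per1, Pabpn1l, Cyp2c7 and Nat8f1 were dim, with scaled log2 signals of -6.85 to -4.25, against 3.59 to 5.001 for Nfkbia. Cdk6 read -1.84 to -0.78. All 5 had no overlap between groups, which the measure of likeness itself favours. Among the other members the brighter Rela probe was nearest, at rank 1933 (0.44), and Nfkbie last, at rank 8629 (0.61). The measure places probes without the group difference of Nfkbia lower, so these ranks are a description only.

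The genes upstream of NF-kB were then described from lists of other pathway members, with the brightest probe taken for each gene. Of 19 receptors and adaptors measured, 0 were called in either direction by limma (0 also at an unadjusted p under 0.05), with a median difference of -0.03, against -0.02 over all probes. The largest differences among genes above background everywhere were those of Card10, an adaptor that links receptors to the IkB kinase complex (-0.71 ± 0.36, SE), and Ltbr, the lymphotoxin beta receptor (-0.34 ± 0.18). Of 22 kinases and ubiquitin ligases 0 were called (0 at an unadjusted p under 0.05), with a median of -0.002. Map3k8, a kinase that binds the Nfkb1 precursor, was at -0.50 ± 0.27 and Map3k14, the kinase that starts the non-canonical branch, at 0.47 ± 0.31. Leaving out 1 array moved Card10 to as little as -0.39 (without monocrotaline replicate 4), Map3k8 to -0.26 (without monocrotaline replicate 1) and Map3k14 to 0.24 (without monocrotaline replicate 3). The IkB kinases themselves were at -0.13 ± 0.15 for Ikbkb and -0.001 ± 0.205 for Chuk, which were singled out after their values were seen.

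Inhibitors and cofactors outside the family were described in the same way. Of 12 other feedback inhibitors 0 were called (0 higher and 1 lower at an unadjusted p under 0.05), with a median of -0.17. The largest differences were those of Zfp36, which speeds the decay of cytokine messenger RNA, at -0.63 ± 0.17, and Usp18, an interferon-induced protease, at -0.34 ± 0.40 (SE). Usp18 read 1.57 on saline replicate 4 and -0.31 to 0.22 on the other 7 arrays, and without that array its difference was 0.09. Zfp36 read -1.02, -0.52, -0.26 and -0.68 on monocrotaline replicates 1 to 4, against 0.07, 0.05, -0.10 and 0.003 on saline replicates 1 to 4, with no overlap. It was the only 1 of the 12 without overlap in the lower direction (3.89% of all probes). Cyld, a deubiquitinase that restrains the pathway, was at 0.26 ± 0.27 and Tnip1, a partner of Tnfaip3, at -0.16 ± 0.18, both singled out after their values were seen. Of 10 other IkB-like and processing factors 0 were called (0 higher and 1 lower at an unadjusted p under 0.05), with a median of -0.14. The largest differences there were -0.40 ± 0.17 for Nkiras1, a small GTPase-like protein that binds IkB, and -0.32 ± 0.17 for Ankrd42. Bcl3, a nuclear IkB protein, was at 0.22 ± 0.23.

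Target genes of NF-kB did not move one way. Of 38 measured 1 was called higher and 0 lower (1.36% and 0.0647% of all probes), 15 differences were positive and 23 negative, and the median was -0.14, against -0.02 over all probes. Over 21 alternatives the list's median ran from -0.18 to -0.03. It was -0.04 without saline replicate 1 (18 positive and 20 negative), against -0.03 over all probes in that fit, and -0.05 without saline replicate 4. At an unadjusted p under 0.05, 5 were higher and 2 lower (1456 and 1535 of 21652 probes). Among the higher was Ptgs2, well above background on 4 monocrotaline arrays and 1 saline array. It met the filter through the group where it was high. The called gene was Ccl2, the chemokine that draws monocytes, at 0.91 ± 0.16 (SE, limma adjusted p = 0.0398). It read 1.93, 1.97, 1.90 and 1.96 on monocrotaline replicates 1 to 4, against 1.14, 0.93, 0.65 and 1.39 on saline replicates 1 to 4. Its groups did not overlap, and the monocrotaline arrays lay within 0.07 log2 units of each other. The call was lost in 11 of 21 alternatives, among them leaving out any 1 array other than saline replicate 4, with adjusted p from 0.0217 to 0.247 over all 21.

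Other target genes are named here after their values were seen. The endothelial adhesion molecules, textbook targets, were at 0.03 ± 0.14 for Icam1, 0.25 ± 0.27 for Vcam1 and -0.13 ± 0.47 for Sele (SE). Csf1, a growth factor of macrophages, and Cxcl10, a chemokine for T cells, had no overlap between groups, with differences of 0.93 ± 0.22 and 0.74 ± 0.17 that did not pass (limma adjusted p = 0.0927 and 0.0960). With Ccl2, 3 of the 38 target genes had no overlap in the higher direction and 0 in the lower (4.67% and 3.89% of all probes). Tnf, the cytokine that is both an inducer and a target of NF-kB, averaged 3.18 ± 1.48 in monocrotaline samples and 4.85 ± 0.59 in saline samples (SD, n = 4 each), a difference of -1.68 ± 0.68 (SE, limma adjusted p = 0.334). Cflar, an inhibitor of caspase activation, was at -0.86 ± 0.29, and its dimmer probe at -0.001 ± 0.186. F3, tissue factor, had the highest difference of the list at 1.88 ± 0.91 (limma adjusted p = 0.402).

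**Figure D4:**
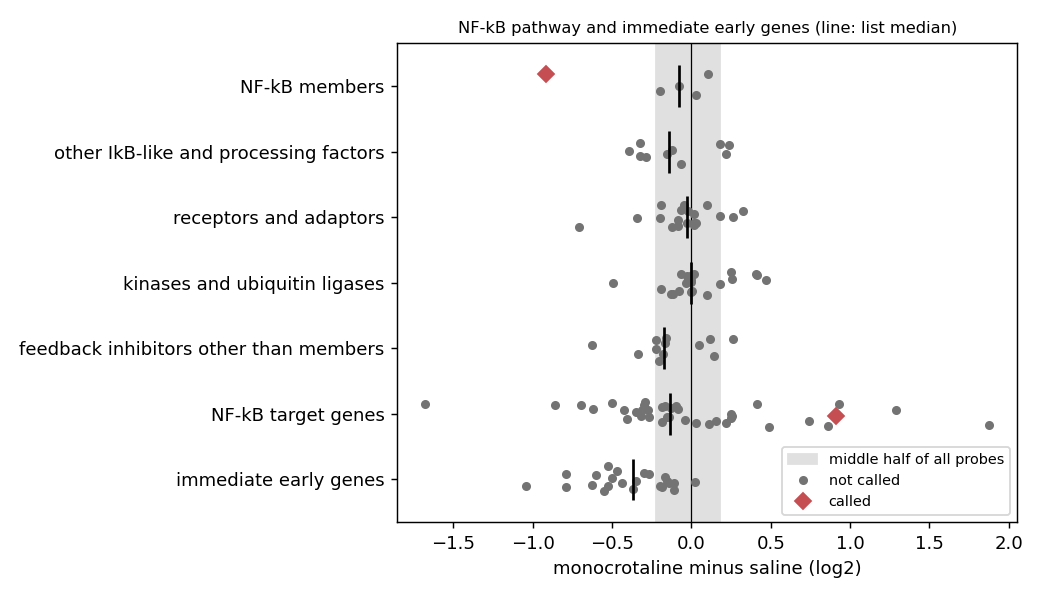
Difference (monocrotaline minus saline, log2) of each measured gene in the NF-kB family and 6 related lists, 1 point a gene, with list medians as vertical lines. Diamonds mark the 2 genes called in the fit over all probes, Nfkbia at -0.92 and Ccl2 at 0.91, and the grey band runs from -0.22 to 0.18. The immediate early genes lie to the left, with a median of -0.37.

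Immediate early genes, which cells switch on within minutes of a stimulus with no new protein, were lower on average by a smaller margin than Nfkbia. Of 23 measured 22 had a negative difference, the median was -0.37, against -0.02 over all probes, and 7 had no overlap between groups in the lower direction (3.89% of all probes). None was called by limma in either direction. At an unadjusted p under 0.05, 0 were higher and 12 lower (1456 and 1535 of 21652 probes). Leaving out monocrotaline replicate 2 gave 1 call, Socs3. Over all probes, leaving out 1 array gave 0 to 108 lower calls, against 14 in the fit of all arrays. The largest differences were -1.04 ± 0.56 for Egr2 and -0.79 ± 0.25 for Socs3, a brake on cytokine signalling (SE). Egr2 read -2.98 on monocrotaline replicate 2 and -1.30 to -0.52 on the other 3 monocrotaline arrays. Without that array the difference of Egr2 was -0.50 and that of Socs3 -1.01. Jun, Junb and Fos, subunits of AP-1, were at -0.60 ± 0.23, -0.35 ± 0.14 and -0.52 ± 0.20, and Atf3 at -0.50 ± 0.15, all named after their values were seen. The mean of the list, taken against its saline mean, was -0.52, -0.33, -0.37 and -0.39 on monocrotaline replicates 1 to 4, against 0.002, 0.02, -0.02 and 0.003 on saline replicates 1 to 4. The saline arrays lay close together and every monocrotaline array lay below them. Over 21 alternatives the list's median ran from -0.43 to -0.28, with 20 to 23 genes negative. The part of these genes in the difference of Nfkbia was not tested.

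Markers of the cells in the preparation also differed between the groups. The mean of the endothelial markers, against its saline mean, was -0.51, -0.10, -0.82 and -0.87 on monocrotaline replicates 1 to 4, against -0.13, -0.25, 0.01 and 0.38 on saline replicates 1 to 4. Monocrotaline replicate 2 lay within the saline range for these markers, and the other 3 monocrotaline arrays lay below it. Pecam1, the gene of the CD31 protein used for selection, was at -0.30 ± 0.19 (SE), and the brightest marker, Kdr, a VEGF receptor, at -0.15 ± 0.24. Markers of T and NK cells differed the other way, and of 17 measured 3 were called higher (1.36% of all probes) and 0 lower, 17 were positive and the median was 1.66. At an unadjusted p under 0.05, 15 were higher and 0 lower (1456 and 1535 of 21652 probes). Of these markers 14 had no overlap between groups in the higher direction (4.67% of all probes). The count of 3 was 7 with normexp and 75th percentile scaling, 9 with normexp and quantile normalization, 7 with median scaling and 0 with the replicate block. It was 5 without monocrotaline replicate 2, 3 without saline replicate 4, and 0 without any 1 of the other 6 arrays. Calls over all probes moved as well, with 14 to 316 higher when 1 array was left out, against 294 with all arrays. The replicate block gave 0 calls over all probes. These markers kept 0 negative differences in each of 21 alternatives, where their median ran from 1.21 to 1.79. Their summed scaled linear signal over 18 genes was 17.9 to 32.7 on monocrotaline arrays and 4.13 to 10.0 on saline arrays, and their brightest member, Cd3d, was at 1.78 ± 0.35. The part of either cell type in the difference of Nfkbia was not tested.

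The other marker lists had 0 genes called by limma in either direction. Their medians were 0.47 for 10 B and plasma cell genes, 0.03 for 15 macrophage and monocyte genes, 0.53 for 7 neutrophil genes and 0.25 for 7 platelet genes. They were 1.79 for 8 airway genes, 0.37 for 9 alveolar type 2 genes, 0.81 for 16 fibroblast, smooth muscle and pericyte genes and 0.88 for 7 red cell genes. These medians moved with single arrays. Without saline replicate 2 the fibroblast, smooth muscle and pericyte median was 0.19 and the alveolar type 2 median -0.48. Without monocrotaline replicate 3 the median was 0.32 for red cell genes, 0.20 for B and plasma cell genes and 0.10 for neutrophil genes. Without monocrotaline replicate 1 it was -0.18 for platelet genes, and for macrophage and monocyte genes it ran from -0.16 to 0.54 over 21 alternatives. Without monocrotaline replicates 1 and 3 together it was 0.49 for airway genes and -0.15 for neutrophil genes. Among the listed markers, 1 of neutrophils and 1 of platelets were well above background on no array. At an unadjusted p under 0.05, 2 B and plasma cell genes, 1 macrophage and monocyte gene and 4 airway genes were higher, while 1 macrophage and monocyte gene and 1 neutrophil gene were lower. Among the higher, Ccr2 of the macrophage and monocyte list was well above background on 4 monocrotaline and 2 saline arrays. Dnai1 of the airway list was so on 3 and 1. Both dim genes met the filter through the group where they were high. Brightest members of these lists had differences of -0.34 ± 0.23 (Lyz2), -0.07 ± 0.31 (Ncf1) and 0.90 ± 0.55 (Pf4). Further ones were at -0.54 ± 0.26 (Tppp3), 0.30 ± 0.69 (Sftpc), 1.06 ± 0.63 (Col1a2) and 0.52 ± 0.42 (Hba-a1). The airway list had 7 positive differences and 1 negative, that of Tppp3. The macrophage and monocyte list, with Lyz2, had 9 positive and 6 negative, and the neutrophil list, with Ncf1, 5 and 2. Summed levels of the macrophage and monocyte genes, cells that also use NF-kB, were 93.0 to 178 on monocrotaline arrays and 139 to 233 on saline arrays. Lyz2 made up most of that sum, with a mean log2 signal of 6.80, against 3.43 for C1qb, the next brightest. The mean of the list, against its saline mean, was 0.34, -0.95, 0.30 and 1.00 on monocrotaline replicates 1 to 4. On saline replicates 1 to 4 it was 0.11, 0.16, 0.19 and -0.46, so the groups overlapped. Airway genes were high on monocrotaline replicates 1 and 3 (2.64 and 2.69 above the saline mean, against 0.38 and 0.25 on replicates 2 and 4). The part of these cell types in the difference of Nfkbia was not tested.

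**Figure D5:**
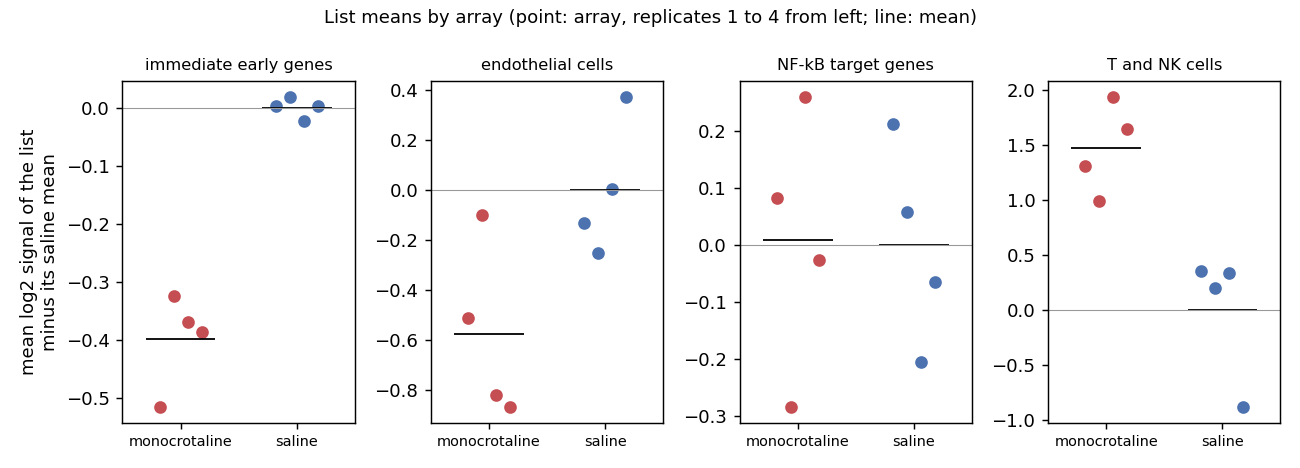
Mean log2 signal of 4 gene lists on each array, minus the list's saline mean, with monocrotaline left and saline right and a separate scale in each panel. Points are arrays and lines are group means (n = 4). The immediate early genes run from -0.52 to -0.33 on monocrotaline arrays and lie near 0 on saline arrays, the NF-kB target genes overlap, and the T and NK cell markers are higher on monocrotaline arrays.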

How the data were processed

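RNA of 8 samples (10 ng each) was amplified and labelled with Cy3, per the labels' protocols. Per the file headers, Agilent Feature Extraction 10.7.3.1 gave the spot values, and the processed signal is an intensity, background-subtracted and detrended within the array but not scaled between arrays. Per the file headers, spot flags (other values, 0 or 1) mark saturation, outliers and signal over background. In the deposited table log2 was applied to values already in log2: 2 to the power of an entry equals the quantile-normalized log2 processed signal (median absolute difference 9.89e-10 over 62976 features). After undoing this, the table was used as an alternative. Limma 3.6.9 appears, with no role given, in the submitters' processing notes.

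Control spots (4259) and flagged outlier spots were left out, spots of a probe averaged, and 17 probes with no usable spot on an array dropped. Log2 signals were scaled to the 75th percentile. Every probe well above background on at least 4 of 8 arrays was fitted with limma 3.58.1 in R 4.3.3 (two-sided moderated test, Benjamini-Hochberg over 21652 probes; package data.table at 1.17.8). Accessions listed by RefSeq named 18006 of 30367 probes, for 15159 symbols. Lists used the brightest fitted probe of a gene, and some genes stand in 2 lists.

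The members and lists were chosen with earlier results of these data known. All probes of the members are named, with up to 3 called genes of each pathway list (or the 2 largest differences where none was called), the brightest gene of each marker list (1 is not reported here) and the 5 profiles most like Nfkbia. Alternatives were other background corrections, scalings, filters, probe choices and variance models, a replicate block and leaving out each array, and 1 chosen after seeing the data. On simulated data of 21652 probes, 54% of 100 probes changed by 1 log2 unit and 86% of 100 changed by 2 were called, with 8 calls of unchanged probes and 0 in a null set.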

Additional observations from a re-analysis of the deposited data

Results flagged for a closer look

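The brighter Rela probe on the monocrotaline arrays had 1 array far from the others: 1.58 on replicate 4, with the other 3 between 1.96 and 2.02. Lyz2 on the saline arrays had 1 high array, 7.53 on replicate 2. With 54 groups of 4 arrays examined for such an array, 2 were found, and chance alone marks about 1 group in 20.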

How the results depend on the processing

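Of 294 higher and 14 lower probes, leaving out 1 array gave 14 to 316 higher and 0 to 108 lower, and leaving out monocrotaline replicates 1 and 3, chosen after seeing their airway genes, gave 62 and 1. Lower calls were 23 with normexp and 75th percentile scaling, 24 with normexp and quantile normalization, 9 with no filter and 59 with array weights. With the replicate block, 0 probes were called in either direction. The same-numbered samples did not deviate together (correlations of -0.01, -0.24, -0.33 and -0.19), and none correlated best with its own number, so the numbers were not taken as pairs. The 1 member call became 0 with the deposited table, quantile normalization, no filter, median scaling, the replicate block and without both airway-high arrays, and 0 to 1 with 1 array left out. The count of 1 target gene became 0 with median scaling, no filter, the replicate block and without both airway-high arrays, 3 with array weights and 0 to 1 with 1 array left out. Immediate early genes had 0 to 1 lower calls with 1 array left out. The counts of the other pathway lists, 0 each way, were 0 in all 21 alternatives. Nfkbia and Ccl2 kept their sign in all 21, and of the other pathway genes named by the rule only Usp18, not called, turned, in 1. Among members not called, the sign turned in 6 of 21 alternatives for Nfkbib, 3 of 21 for Nfkbie, 2 of 21 for Nfkb2 and 2 of 19 for the dimmer Rela probe, and in none for the brighter one. The cause of these changes was not tested, and fewer arrays leave less power.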
